A study of Mus musculus with 16 samples.

Results

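Interferon-stimulated genes are genes whose transcription rises when a cell receives an interferon signal. A set of 41 of them, made up of antiviral effectors, guanylate-binding proteins and interferon signalling factors, was followed in macrophages sorted from mouse fat. The set was drawn up by gene symbol, with earlier results of these data known. Each gene was read through probe sets that carry its symbol and no other. Such probe sets were found for 39 of the 41 genes, 65 probe sets among the 34945 that name a single gene, and 39 genes among 18193. Isg15, a ubiquitin-like protein, had only a probe set shared with another symbol, and for Ifi44 none was found in the annotation used here. Mx2 lay above the array median on fewer than 4 arrays and was not tested. The other 38 genes were among the 11908 genes tested.

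The study measured adipose tissue macrophages on 16 Affymetrix expression arrays, with 4 arrays in each of 4 groups. Lean mice were C57BL/6J Lep +/+, and obese mice were C57BL/6J Lep ob/ob, which lack the satiety hormone leptin. All were 12 to 14 weeks of age, and all cells came from perigonadal fat that was digested and sorted by surface antigens. FB cells were F4/80+ CD11b+ CD11c-, FBC cells were F4/80+ CD11b+ CD11c+, and their RNA was amplified for 2 rounds before labelling. Obesity here means the ob/ob genotype, so that leptin deficiency and adiposity cannot be told apart. The labels do not say whether FB and FBC arrays of the same number came from the same mouse, so the p-values refer to variation among arrays.

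Type I interferons, such as interferon beta, bind the receptor of Ifnar1 and Ifnar2, and the kinases Jak1 and Tyk2 then activate transcription factors, among them Stat2, which with Irf9 is part of a complex that binds the interferon-stimulated response element (ISRE) in promoters. Interferon gamma signals through Ifngr1, Ifngr2, Jak1 and Jak2, and promoters that respond to it often hold a gamma-activated site (GAS). Macrophages both respond to interferons and make interferon beta when they sense foreign nucleic acid.

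The promoters of 33 of the 41 genes were in the RefSeq table used here (mouse build GRCm38.p6), as windows from 250 bases before to 50 bases after the annotated start. The ISRE was searched as a GAAA pair with any 2 bases between, or the same as a TTTC pair on the other strand, and the GAS as TTCNNNGAA, which reads the same on both strands. Some genes had more than 1 window (40 windows for the 33 genes, 32851 for all 27025 genes of the table). A gene was counted if any of its windows held a match. An ISRE match lay in 15 of the 33 genes (45.5%) and in 3.99% of all 27025 genes. A GAS match lay in 9 of the 33 (27.3%) and in 9.55% of all. Stretches of 6 promoters are shown, those of 4 genes whose levels carry the obesity difference (Ifit1, Gbp7, Gbp3, Gbp2) and those of Igtp and Irf1, which also hold a match to at least 1 of the motifs and passed the test in no comparison. Capitals mark the motif matches, and all run 5′ to 3′ on the plus strand, which is the strand of each of the 6 genes. The stretches lie at chr19:34640769-34640888 for Ifit1, chr3:142530216-142530335 for Gbp7, chr3:142559984-142560043 for Gbp3, chr3:142620593-142620662 for Gbp2, chr11:58199496-58199555 for Igtp and chr11:53769914-53770013 for Irf1.
Ifit1: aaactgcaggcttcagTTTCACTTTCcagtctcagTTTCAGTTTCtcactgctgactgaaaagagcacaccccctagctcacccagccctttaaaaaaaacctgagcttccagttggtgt
Gbp7: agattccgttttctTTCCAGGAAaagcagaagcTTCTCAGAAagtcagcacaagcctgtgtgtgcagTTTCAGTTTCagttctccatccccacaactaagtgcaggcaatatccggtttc
Gbp3: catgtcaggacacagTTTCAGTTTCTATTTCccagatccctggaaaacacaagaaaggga
Gbp2: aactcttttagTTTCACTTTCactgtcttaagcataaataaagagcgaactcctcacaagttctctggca
Igtp: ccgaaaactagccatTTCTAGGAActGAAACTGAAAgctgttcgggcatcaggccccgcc
Irf1: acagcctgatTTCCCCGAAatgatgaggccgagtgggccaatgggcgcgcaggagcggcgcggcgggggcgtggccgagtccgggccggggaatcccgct
Ifit1 holds 2 separate ISRE matches, and Gbp3 holds 2 that overlap in 1 run. Gbp7 holds 2 GAS matches ahead of its ISRE match, Igtp holds 1 of each, and Irf1 holds a GAS match and no ISRE match in its window.

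Motif matches were found in genes that passed the test below and in genes that did not pass or were not tested. Of the 12 genes with a window that passed in at least 1 comparison, 7 (58.3%) held an ISRE match. Of the other 21 genes, 8 (38.1%) held one, among them Isg15, which was not tested. The ISRE matches of Ifih1 and Eif2ak2 lay wholly after the annotated start, and that of Stat2 began at position -222 from it. The windows of Tap1 and Psmb9, a gene pair read in opposite directions, share 275 bases and held no match. In 4 genes both motifs were found, and they overlap in that of Bst2. A match describes letters in a window and not a bound site.

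**Figure D1:**
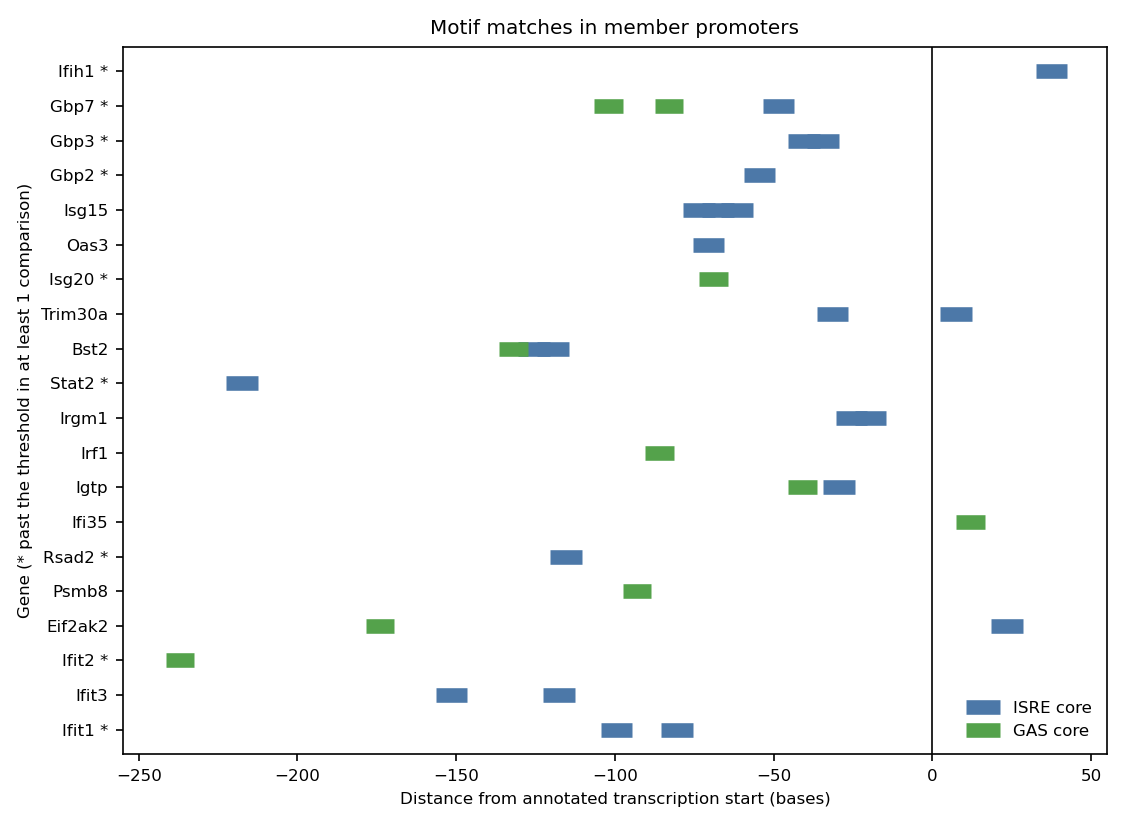
ISRE core matches (blue) and GAS core matches (green) in the promoters that held at least 1, plotted by their distance in bases from the annotated start (vertical line). Stars mark genes past the threshold in at least 1 comparison, and genes without a star did not pass or, like Isg15, were not tested. 20 of 33 genes held a match (60.6%), against 12.9% of all genes in the table, and starred and unstarred genes are interleaved.

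Levels are given as log2(intensity + 16) after quantile normalization, on which the median of an array was 5.87. Changes are differences on that scale with their standard error (SE), which understates the change of dim genes. The labels were checked first. The CD11c gene Itgax exceeded its FB level in lean FBC by 1.49 ± 0.26 (limma adjusted p = 0.0213) and in obese FBC by 2.20 ± 0.26 (adjusted p = 0.000111), and its FB and FBC arrays did not overlap. All 7 macrophage markers lay above the array median on at least 4 arrays. On 3 arrays, lean FB 4, lean FBC 4 and obese FB 4, the actin signal at the 3′ end over that at the 5′ end, a sign of RNA quality, was 53.3, 48.0 and 45.0, while on the other 13 arrays it lay between 1.15 and 10.9. Calls lost without these 3 arrays are given with both values.

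In obese mice a part of the interferon-stimulated genes was lower in both macrophage gates, and none was higher past the threshold (Benjamini-Hochberg adjusted p under 0.05 over all 11908 genes), where 1.81% of all genes were higher in FB and 8.12% in FBC. Under 6 alternatives Irf1 was called higher in FBC. In FB cells 11 of the 38 genes were lower, among them Ifit1, Gbp7, Oas2 and Gbp3, where 5.89% of all genes were called and 4.07% were lower. In FBC cells 11 were lower as well, led by Ifit1, Gbp3 and Gbp7, where 14.1% of all genes were called and 5.95% were lower. Between CD11c+ and CD11c- cells of lean mice no gene of the set passed the threshold, where only 0.193% of all genes did. In these sorted populations a smaller share of cells with a transcript and less of it per cell cannot be told apart.

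The median difference over the 38 genes was -0.43 in FB and -0.45 in FBC, against 0.03 and 0.08 over all genes tested. Differences below 0 were seen for 31 genes in FB and 33 in FBC, against 46.3% and 42.9% of all genes. All obese arrays lay below all lean arrays for 13 genes in FB and 14 in FBC, where the shares of all genes were 6.32% and 7.61%. The FB count rested on borderline values: it was 5, 5 and 6 without lean FB array 1, 2 or 3, 7 without lean FBC array 2, and 6, 7, 6 and 7 without obese FB array 1, 2, 3 or 4. The FBC count rose to 19 without the 3 arrays of high actin ratio, a setting in which 9.39% of all genes were lower.

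**Figure D2:**
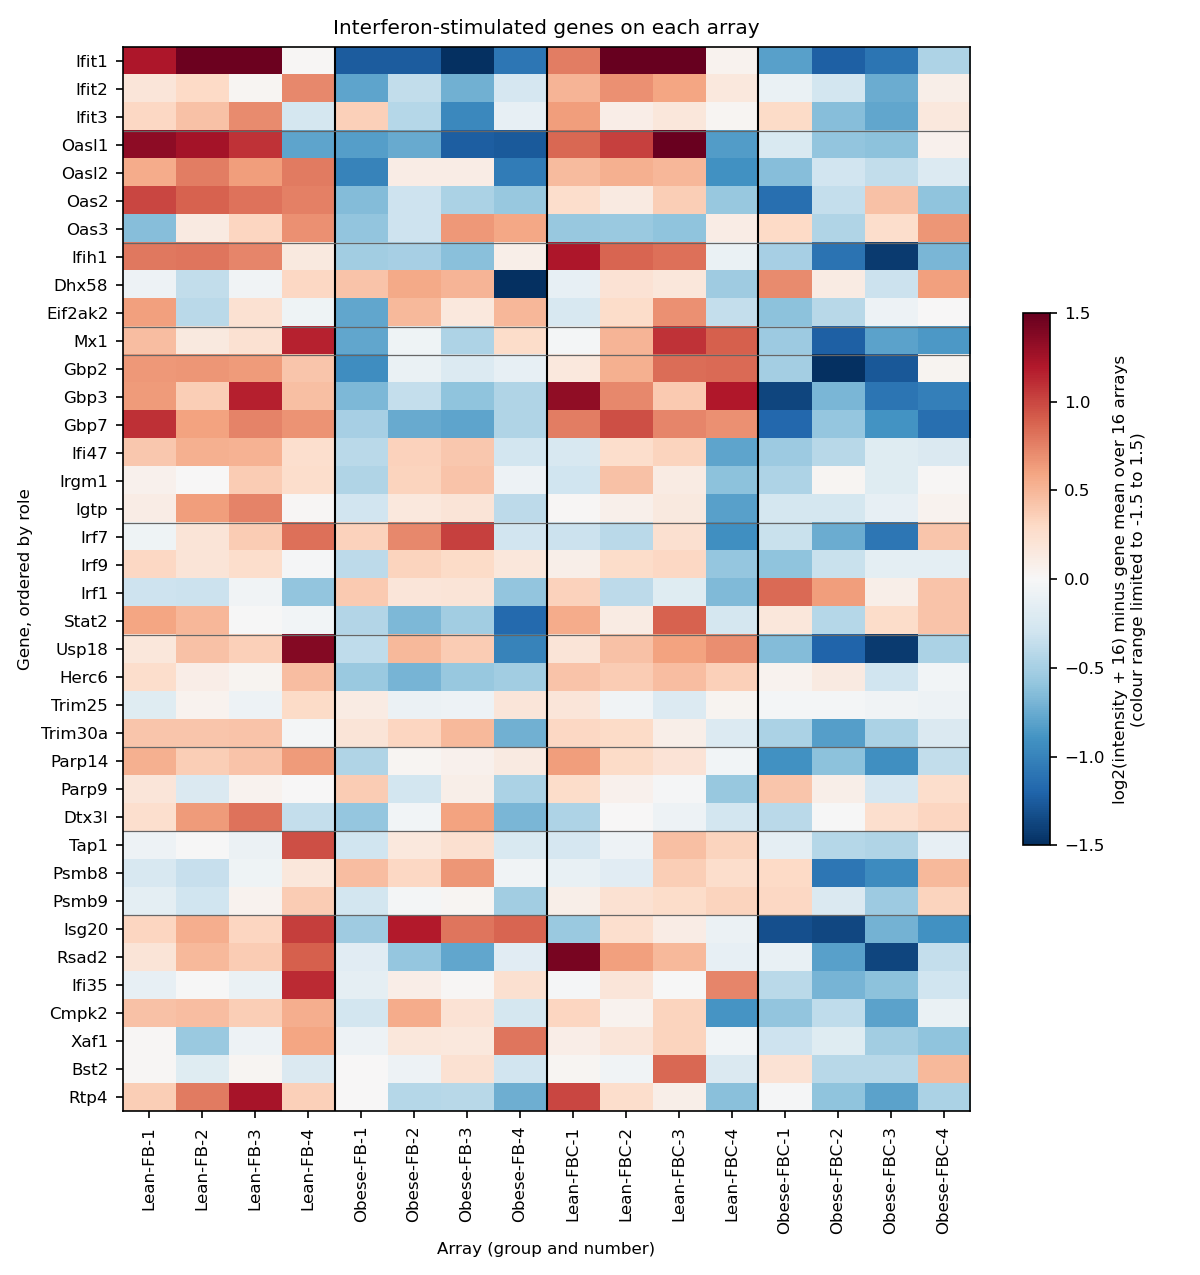
Level of each of the 38 genes on each of the 16 arrays as the difference from the gene's mean over all arrays (log2 scale, colours limited to -1.5 to 1.5), with genes grouped by role and arrays by group. Obese FB and obese FBC arrays are mostly blue in the rows of Ifit1, Oasl1, Ifih1, Gbp3 and Gbp7, while rows such as Trim25 and Parp9 stay pale. Lean FB 4 and lean FBC 4 are blue for Oasl1.

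The median of the 38 genes, each centred on its mean over the arrays, was 0.29, 0.37, 0.36 and 0.37 on the lean FB arrays and -0.40, -0.04, 0.10 and -0.28 on the obese FB arrays. It was 0.18, 0.26, 0.33 and -0.12 in lean FBC and -0.36, -0.43, -0.53 and -0.09 in obese FBC. The FB groups did not overlap on this median, and in FBC lean array 4 lay just below obese array 4.

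The IFIT proteins bind foreign RNA and block its translation. Ifit1 measured 10.31, 10.57, 10.57 and 9.12 in lean FB and 7.85, 7.85, 7.61 and 8.02 in obese FB. Its FBC values were 9.87, 10.64, 11.24 and 9.15 in lean and 8.28, 7.87, 8.0 and 8.64 in obese mice. Lean array 4 was the lowest lean array in both gates, and it still lay above every obese array. Ifit1 fell by 2.31 ± 0.38 in FB (limma adjusted p = 0.00167) and fell by 2.03 ± 0.38 in FBC (adjusted p = 0.00242), the largest changes of the set in FB and in FBC, and both calls held under all alternatives tried.

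Ifit2, a partner of Ifit1, moved less. It measured 8.07, 8.18, 7.91 and 8.61 in lean FB against 7.09, 7.52, 7.17 and 7.63 in obese FB. In FBC its values were 8.39, 8.57, 8.48 and 8.04 in lean and 7.79, 7.61, 7.14 and 7.97 in obese mice. The groups did not overlap in either gate. Ifit2 fell by 0.84 ± 0.21 in FB (limma adjusted p = 0.0274) and by 0.74 ± 0.21 in FBC (adjusted p = 0.0293). The FB call was lost without lean FB 1 or 2 or obese FB 1 or 3 (adjusted p 0.0538 to 0.0868), and the FBC call without lean FBC 1, 2 or 3 or obese FBC 2 or 3 (0.0557 to 0.0883). Each call was also lost with a fit of only the groups compared (0.0512 for both). Median centring (0.0734) and the actin ratio as a covariate (0.0507) lost the FBC call as well. Ifit3, of the same family, averaged 7.63 ± 0.41 in lean and 7.04 ± 0.56 in obese FB (SD, n = 4), with overlapping arrays and no call in either gate.

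The OAS family makes the oligoadenylates that switch on the RNA-degrading enzyme RNase L. In obese FB 3 of its 4 genes here were lower, where 4.07% of all genes were lower. None passed the threshold in FBC, where 5.95% of all genes were lower and 3 of the 4 OAS differences were below 0. The obesity difference of no OAS gene differed between the gates past the threshold (limma adjusted p 0.319 to 0.627), where 0.16% of all genes did. Oas2, an oligoadenylate synthetase, measured 9.44, 9.32, 9.25 and 9.19 in lean FB against 7.78, 8.12, 7.96 and 7.86 in obese FB. In the CD11c+ gate it measured 8.70, 8.57, 8.80 and 7.87 in lean and 7.30, 8.08, 8.87 and 7.83 in obese mice. The FB groups lay apart by over 1 unit, while in FBC the highest value was that of an obese array. Oas2 fell by 1.37 ± 0.27 in FB (limma adjusted p = 0.00583), and its difference in FBC was -0.46 ± 0.27 (adjusted p = 0.269).

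Oasl1, an OAS-like protein that in mice limits translation of Irf7, measured 9.88, 9.78, 9.62 and 7.74 in lean FB and 7.71, 7.78, 7.30 and 7.27 in obese FB. Its FBC values were 9.40, 9.56, 10.02 and 7.70 in lean and 8.31, 7.94, 7.92 and 8.60 in obese mice. Lean array 4 was at the obese level in FB and below it in FBC, and both arrays of that number are among the 3 of high actin ratio. Oasl1 fell by 1.74 ± 0.47 in FB with overlapping groups (limma adjusted p = 0.0367), and its difference in FBC was -0.97 ± 0.47 (adjusted p = 0.178). The FB call was lost without lean FB 1, 2 or 3 or any 1 of the 4 obese FB arrays (adjusted p 0.0643 to 0.128). With no filter it was lost as well (0.0509).

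Oasl2, an OAS-like protein that in mice does make oligoadenylates, measured 9.07, 9.28, 9.14 and 9.29 in lean FB and 7.51, 8.62, 8.62 and 7.47 in obese FB. The FBC arrays gave 8.99, 9.05, 9.01 and 7.61 in lean and 7.87, 8.23, 8.14 and 8.31 in obese mice. All obese FB arrays were below all lean ones, and in FBC lean array 4 was the lowest of the 8 arrays. Oasl2 fell by 1.15 ± 0.32 in FB (limma adjusted p = 0.0444) and differed by -0.53 ± 0.32 in FBC (adjusted p = 0.29). The FB call was lost without lean FB 1, 2 or 3, lean FBC 1, 2 or 3, obese FB 1 or 4, or any 1 of the 4 obese FBC arrays (adjusted p 0.0505 to 0.124). It was also lost with no further normalization (0.0512), median centring (0.0714), a pseudocount of 1 (0.0568) and no filter (0.0615). All probe sets tested singly (0.054) and a fit of only the groups compared (0.057) lost it too. Oas3, another synthetase, averaged between 4.96 and 5.56 in the 4 groups, below the array median, and passed in no comparison.

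**Figure D3:**
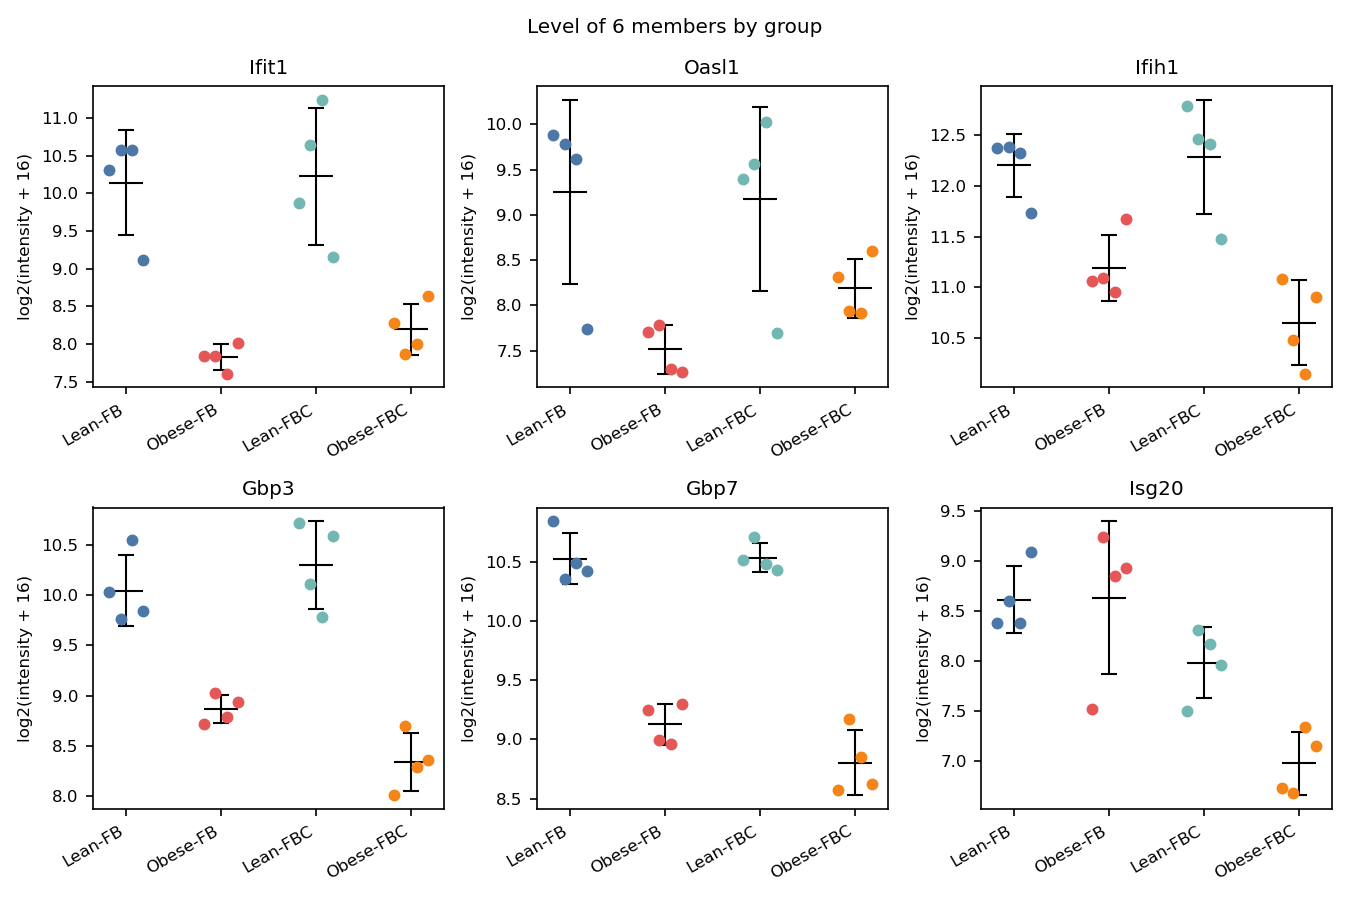
Level of 6 genes on each array by group (log2(intensity + 16); points are arrays, horizontal lines means, bars SD, n = 4). For Ifit1, Ifih1, Gbp3 and Gbp7 every obese array lies below every lean array of the same gate, Oasl1 overlaps through lean array 4, and Isg20 is lowest in obese FBC.

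Among the sensors of foreign RNA, Ifih1 (MDA5, which senses long double-stranded RNA) was lower in both gates. It measured 12.37, 12.38, 12.32 and 11.73 in lean FB and 11.06, 11.09, 10.95 and 11.67 in obese FB. In FBC it measured 12.79, 12.46, 12.41 and 11.48 in lean and 11.08, 10.48, 10.15 and 10.90 in obese mice. The groups did not overlap in either gate, though lean FB 4 and obese FB 4 lay close together. Ifih1 fell by 1.01 ± 0.28 in FB (limma adjusted p = 0.0424) and by 1.63 ± 0.28 in FBC (adjusted p = 0.00111). The FBC call held under all alternatives tried. The FB call was lost without lean FB 1, 2 or 3, lean FBC 2 or 3, obese FB 1, 2 or 3, or obese FBC 2 or 4 (adjusted p 0.0512 to 0.130). It was also lost with median centring (0.0898), a pseudocount of 1 (0.0541), no filter (0.0587) and all probe sets tested singly (0.0523). Dhx58 (LGP2, a regulator of MDA5) and Eif2ak2 (PKR, a kinase that stops translation on double-stranded RNA) passed in no comparison, with differences of -0.13 ± 0.47 and -0.00 ± 0.31 in FB and 0.35 ± 0.47 and -0.36 ± 0.31 in FBC.

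The dynamin-like GTPase Mx1 blocks influenza and related viruses, and C57BL/6 mice are known to carry an inactive allele of it. It measured 8.31, 7.99, 8.08 and 9.0 in lean FB and 7.07, 7.78, 7.39 and 8.13 in obese FB. Its FBC values were 7.82, 8.36, 8.93 and 8.75 in lean and 7.31, 6.63, 7.05 and 6.99 in obese mice. The FBC groups lay apart, and in FB obese array 4 overlapped the lean arrays. Mx1 fell by 1.47 ± 0.29 in FBC (limma adjusted p = 0.00297), a call that held under all alternatives tried, and differed by -0.75 ± 0.29 in FB (adjusted p = 0.137). Mx2, not tested, averaged 5.20 ± 0.71 and 5.90 ± 0.88 in lean FB and FBC and 4.75 ± 0.21 and 4.65 ± 0.11 in obese FB and FBC (SD, n = 4), all near or below the array median.

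Guanylate-binding proteins are GTPases that attack the vacuoles of intracellular pathogens. Those measured in the set were lower in obese FBC for 3 of 3, where 5.95% of all genes were lower. In obese FB 2 of 3 were lower, where 4.07% of all genes were. Gbp7 measured 10.84, 10.35, 10.49 and 10.42 in lean FB and 9.25, 8.99, 8.96 and 9.30 in obese FB. In the CD11c+ gate it measured 10.51, 10.71, 10.48 and 10.43 in lean and 8.57, 9.17, 8.85 and 8.62 in obese mice. The 8 lean arrays spanned 10.35 to 10.84 and the 8 obese arrays 8.57 to 9.30, so that genotype separated the arrays by over 1 unit in both gates. Gbp7 fell by 1.40 ± 0.17 in FB (limma adjusted p = 0.000154) and by 1.73 ± 0.17 in FBC (adjusted p = 7.59e-06). Its second probe set was lower too, at -1.57 in FB and -1.63 in FBC.

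Gbp3 measured 10.03, 9.76, 10.55 and 9.84 in lean FB and 8.72, 9.03, 8.79 and 8.94 in obese FB. In FBC its values were 10.72, 10.11, 9.78 and 10.59 in lean and 8.01, 8.70, 8.29 and 8.36 in obese mice. Again no obese array reached a lean one in either gate. Gbp3 fell by 1.17 ± 0.23 in FB (limma adjusted p = 0.00541) and by 1.96 ± 0.23 in FBC (adjusted p = 3.31e-05). The calls for Gbp3 and Gbp7 held in both gates under all alternatives tried.

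Gbp2 measured 10.68, 10.69, 10.66 and 10.44 in lean FB and 9.09, 9.93, 9.82 and 9.90 in obese FB. The FBC arrays gave 10.18, 10.56, 10.86 and 10.88 in lean and 9.51, 8.38, 8.75 and 10.07 in obese mice. Lean and obese arrays did not overlap in either gate. Gbp2 fell by 1.44 ± 0.30 in FBC (limma adjusted p = 0.00535), and its difference of -0.93 ± 0.30 in FB missed the threshold (adjusted p = 0.0819). Its probe set has a suffix that marks probes shared with similar transcripts, and the second Gbp2 probe set was lower in FBC as well, by -1.22.

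The immunity-related GTPases Ifi47, Irgm1 and Igtp, which also act on pathogen vacuoles, did not pass the threshold in any comparison. Their differences lay between -0.46 and -0.12 in FB and between -0.23 and -0.00 in FBC. Igtp, whose promoter stretch above holds an ISRE and a GAS match, averaged 8.91 ± 0.15 in obese FBC and 8.91 ± 0.45 in lean FBC (SD, n = 4).

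Among the transcription factors of the pathway only Stat2 passed, in FB. Stat2 measured 6.37, 6.28, 5.77 and 5.74 in lean FB and 5.34, 5.11, 5.26 and 4.61 in obese FB. In FBC it measured 6.33, 5.90, 6.66 and 5.52 in lean and 5.95, 5.35, 6.05 and 6.21 in obese mice. The FB groups did not overlap and the FBC groups did, all of them at levels near the array median. A second Stat2 probe set gave -0.56 in FB and was not called. Stat2 fell by 0.96 ± 0.26 in FB (limma adjusted p = 0.0411), a call lost without lean FB 1, 2 or 3, lean FBC 2 or any 1 of the 4 obese FB arrays (adjusted p 0.0525 to 0.135). Median centring (0.0538), no filter (0.0572), all probe sets tested singly (0.0517) and trend and robust settings (0.0516) lost this call as well.

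Irf7, which drives interferon alpha genes, and Irf9, the DNA-binding partner of Stat2, differed by 0.12 ± 0.34 and -0.09 ± 0.22 in FB and by -0.09 ± 0.34 and -0.33 ± 0.22 in FBC, with no call. Irf1, a factor induced by interferon gamma, had the highest difference of the set in FBC, 0.72 ± 0.25, which missed the threshold (limma adjusted p = 0.0644). It passed as higher without lean FBC 1, obese FB 4 or obese FBC 3, with the array number as a block, with trend and robust settings and with array weights (adjusted p 0.00185 to 0.047). Irf1 averaged 11.29 ± 0.43 in lean and 12.02 ± 0.33 in obese FBC (SD, n = 4), and the arrays overlapped.

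Of the genes for Isg15 conjugation and TRIM ligases, Usp18, the protease that removes Isg15 and restrains the type I receptor, fell in FBC. It measured 7.86, 8.13, 8.04 and 9.07 in lean FB and 7.31, 8.17, 8.07 and 6.69 in obese FB. Its FBC values were 7.88, 8.13, 8.29 and 8.38 in lean and 7.04, 6.49, 6.25 and 7.21 in obese mice. The FBC groups lay apart and the FB groups overlapped. Usp18 fell by 1.42 ± 0.33 in FBC (limma adjusted p = 0.00938), under all alternatives tried, and differed by -0.72 ± 0.33 in FB (adjusted p = 0.229).

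Herc6, in mice the main ligase that attaches Isg15, fell by 0.80 ± 0.15 in FB (limma adjusted p = 0.0039), from 8.32 ± 0.19 to 7.51 ± 0.08 (SD, n = 4). The 2 other Herc6 probe sets that were tested gave -0.40 and -0.08, neither called, and the mean of the gene's probe sets gave -0.36 (adjusted p = 0.299). In FBC the difference of Herc6 was -0.44 ± 0.15 (adjusted p = 0.0572). Trim25, a ligase of the RNA sensor pathway, averaged 12.94 to 13.03 in the 4 groups, with differences of 0.01 ± 0.15 in FB and -0.04 ± 0.15 in FBC. Trim30a, a mouse TRIM protein that restrains inflammatory signalling, differed by -0.24 ± 0.24 and -0.62 ± 0.24 without a call, although the FBC arrays did not overlap.

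Parp14, an ADP-ribosyltransferase, measured 11.84, 11.67, 11.73 and 11.94 in lean FB and 10.85, 11.34, 11.37 and 11.44 in obese FB. In the CD11c+ gate it measured 11.93, 11.59, 11.51 and 11.26 in lean and 10.40, 10.69, 10.39 and 10.93 in obese mice. In neither gate did lean and obese arrays overlap. Parp14 fell by 0.97 ± 0.19 in FBC (limma adjusted p = 0.00311), and its difference of -0.55 ± 0.19 in FB missed the threshold (adjusted p = 0.101). Its second probe set was lower in FBC by -2.01. Parp9 and its partner ligase Dtx3l differed by -0.07 ± 0.22 and -0.51 ± 0.29 in FB and by 0.19 ± 0.22 and 0.24 ± 0.29 in FBC, with no call.

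Genes of antigen processing did not pass the threshold. The peptide transporter Tap1 and the immunoproteasome subunits Psmb8 and Psmb9 differed by -0.23 ± 0.24, 0.47 ± 0.31 and -0.20 ± 0.21 in FB. In FBC they differed by -0.40 ± 0.24, -0.40 ± 0.31 and -0.26 ± 0.21. Psmb8 had the highest difference of the set in FB. A separate list of 14 genes of MHC class I presentation, 13 of them tested, had no call in any comparison. The shares of all genes called ran from 0.16% for the difference between gates in the obesity effect to 14.1% for obesity in FBC. The median difference of the list was 0.18 in FB and -0.02 in FBC, against 0.03 and 0.08 over all genes tested.

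Of the remaining effectors, Rsad2 (viperin), which makes a chain-terminating nucleotide, measured 10.93, 11.22, 11.11 and 11.63 in lean FB and 10.56, 10.16, 9.96 and 10.57 in obese FB. The FBC arrays gave 12.16, 11.35, 11.22 and 10.61 in lean and 10.62, 9.92, 9.36 and 10.38 in obese mice. In FBC lean array 4 lay 0.01 below obese array 1, and in FB the groups lay apart. Rsad2 fell by 1.27 ± 0.31 in FBC (limma adjusted p = 0.0126), under all alternatives tried, and differed by -0.91 ± 0.31 in FB (adjusted p = 0.0939). Its other probe sets gave -1.81 and -0.31 in FBC, and 1 of them was called.

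Rtp4, a receptor chaperone with antiviral activity, measured 10.25, 10.66, 11.12 and 10.24 in lean FB and 9.89, 9.46, 9.47 and 9.15 in obese FB. In FBC it measured 10.88, 10.15, 9.97 and 9.26 in lean and 9.87, 9.28, 9.08 and 9.41 in obese mice. The FB groups lay apart and the FBC groups overlapped through lean array 4. Rtp4 fell by 1.08 ± 0.30 in FB (limma adjusted p = 0.043) and differed by -0.66 ± 0.30 in FBC (adjusted p = 0.156). The FB call was lost without lean FB 1, 2 or 3, lean FBC 2 or 3, obese FB 2, 3 or 4, or obese FBC 2 or 4 (adjusted p 0.0539 to 0.152). It was also lost with median centring (0.062), a pseudocount of 1 (0.0547), no filter (0.0595) and all probe sets tested singly (0.0526).

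Ifi35, Cmpk2, Xaf1 and Bst2 passed in no comparison, and the Ifi35 probe set, like that of Trim25, may bind similar transcripts. Ifi35, an interferon-induced leucine zipper protein, and Xaf1, a promoter of apoptosis, differed by -0.73 ± 0.25 and -0.54 ± 0.23 in FBC with arrays that did not overlap (limma adjusted p = 0.0641 and 0.129). Cmpk2, a mitochondrial nucleotide kinase, differed by -0.40 ± 0.26 in FB and -0.42 ± 0.26 in FBC. Bst2 (tetherin), which holds budding virus at the cell surface, differed by 0.06 ± 0.25 and -0.18 ± 0.25.

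Isg20, an RNA exonuclease, separated the 2 gates in obese mice. It measured 8.38, 8.60, 8.38 and 9.09 in lean FB and 7.52, 9.24, 8.85 and 8.93 in obese FB. Its FBC values were 7.5, 8.31, 8.17 and 7.96 in lean and 6.74, 6.69, 7.34 and 7.15 in obese mice. Every obese FBC array lay below every other array. Isg20 was lower in obese FBC than in obese FB by -1.66 ± 0.31 (limma adjusted p = 0.00368), under all alternatives tried. It fell by 1.0 ± 0.31 from lean to obese FBC (adjusted p = 0.0416) and differed by 0.02 ± 0.31 in FB (adjusted p = 0.977). The FBC call was lost without lean FB 2, lean FBC 2, 3 or 4, or obese FBC 1, 2 or 4 (adjusted p 0.0511 to 0.114). It was also lost with no further normalization (0.0512), median centring (0.0605), no filter (0.0587) and the actin ratio as a covariate (0.0906).

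The comparisons of FBC with FB use the same arrays as the obesity comparisons. In lean mice 0 of the 38 genes passed by limma, where 0.193% of all genes were called. At an unadjusted p under 0.05 8.2% of all genes and 3 of the set were found, Oas2, Ifi47 and Igtp, with FBC minus FB differences of -0.81 ± 0.27, -0.54 ± 0.24 and -0.53 ± 0.24, and with array weights 5 genes passed the adjusted threshold, a setting that calls 11.1% of all genes. The genes with the largest obesity differences were at like levels in the lean gates, with differences of 0.08 ± 0.38 for Ifit1, 0.26 ± 0.23 for Gbp3 and 0.01 ± 0.17 for Gbp7.

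In obese mice 3 genes differed between the gates, where 8.39% of all genes were called, 3.28% lower and 5.11% higher in FBC. Isg20 and Parp14 were lower in FBC, and Herc6 was higher. Parp14 differed by -0.64 ± 0.19 with overlapping arrays (limma adjusted p = 0.0443), and Herc6 by 0.55 ± 0.15 without overlap (adjusted p = 0.0302). Without obese FB 2, obese FB 3 or obese FBC 1 the count was 1, and without the 3 arrays of high actin ratio it was 6. The call for Herc6 was lost without obese FB 2, 3 or 4 or obese FBC 1, 2 or 4 (adjusted p 0.0505 to 0.101). With the mean of its probe sets Herc6 gave 0.33 and was not called (adjusted p = 0.311). A fit of only the groups compared lost the Herc6 call too (0.0709). The call for Parp14 was lost without lean FB 1, 2 or 3, lean FBC 2 or 3, obese FB 2, 3 or 4, or obese FBC 1, 2 or 3 (adjusted p 0.0552 to 0.114) and, at -0.57, without the 3 arrays of high actin ratio (0.0625). Of all 31 alternatives, 20 lost the Parp14 call, cyclic loess normalization (0.105) and a fit of only the groups compared (0.0802) among them.

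The obesity difference was then compared between the gates. By the interaction term 0 of 38 genes passed, where 0.16% of all genes were called. At an unadjusted p under 0.05 there were 4, against 13.2% of all genes. The obesity difference of Oas2 was less negative in FBC, by 0.90 ± 0.38, while Gbp3, Isg20 and Xaf1 had lower differences in FBC, by -0.78 ± 0.32, -1.03 ± 0.44 and -0.82 ± 0.33 (limma adjusted p 0.301 to 0.328 for the 4). The calls lower in both gates were 5, Ifit1, Ifit2, Ifih1, Gbp3 and Gbp7, which is 45.5% of each list of 11. Over all genes, 226 were lower in both, 46.6% of the 485 lower in FB and 31.9% of the 708 lower in FBC. The lean and obese arrays of the FB comparison are not those of the FBC comparison.

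**Figure D4:**
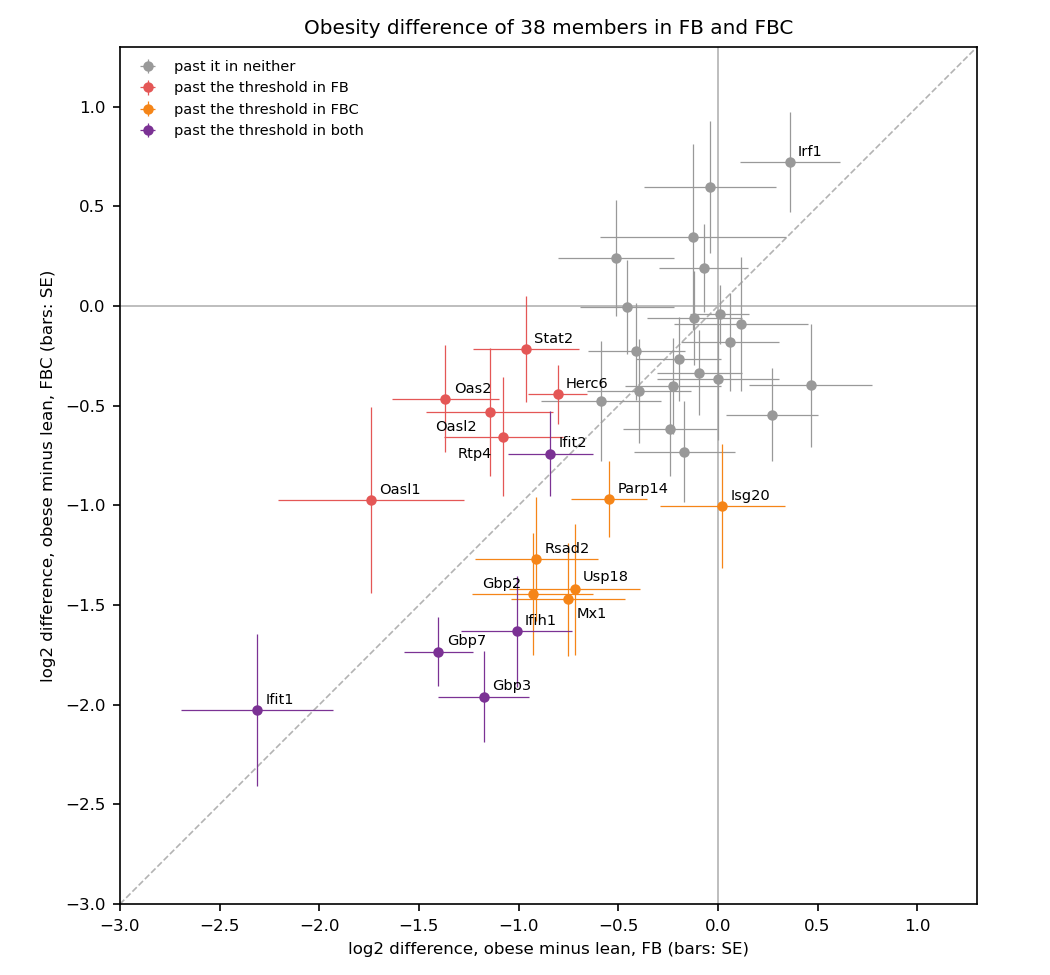
Obesity difference (obese minus lean, log2 scale) of the 38 genes in FB (horizontal) and FBC (vertical), with bars of 1 SE, the line of equal difference dashed, and colours for the gates in which a gene passed the threshold. Ifit1 lies farthest toward the lower left at -2.31 and -2.03, Irf1 lies at the top with 0.36 ± 0.25 in FB and 0.72 in FBC, and Isg20 lies at 0.02 in FB and -1.0 in FBC.

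Upstream of these genes, the interferon beta gene Ifnb1 was lower in obese mice in both gates. It measured 8.19, 8.32, 8.15 and 7.74 in lean FB and 6.74, 7.28, 6.99 and 6.91 in obese FB. In the CD11c+ gate it measured 7.87, 8.72, 9.38 and 8.41 in lean and 6.70, 6.68, 6.83 and 7.02 in obese mice. Every obese array lay below every lean array. Ifnb1 fell by 1.12 ± 0.25 in FB (limma adjusted p = 0.0143) and fell by 1.79 ± 0.25 in FBC (adjusted p = 0.000208). The FB call was lost without lean FB 2 (adjusted p = 0.0584).

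Interferon gamma, Ifng, stood near the array median, at 4.20 to 7.05 over the 16 arrays, and passed in no comparison. Its obesity difference was -0.65 in FB (limma adjusted p = 0.393) and -0.91 in FBC (adjusted p = 0.144). The 5 interferon alpha genes of the list, Ifna1, Ifna2, Ifna4, Ifna5 and Ifna11, were not above the array median on 4 arrays. For Ifnk, Ifnl2 and Ifnl3 no probe set was found in the annotation used here.

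The receptors were not called. Ifnar1 and Ifnar2 differed by 0.51 ± 0.24 and 0.18 ± 0.17 in FB and by 0.11 ± 0.24 and 0.30 ± 0.17 in FBC. Ifngr1 and Ifngr2 differed by 0.79 ± 0.36 and 0.08 ± 0.20 in FB and by 0.47 ± 0.36 and -0.01 ± 0.20 in FBC. The kinases Jak1 and Tyk2 differed by -0.17 ± 0.21 and -0.10 ± 0.18 in FB and by 0.25 ± 0.21 and -0.04 ± 0.18 in FBC. Of the 8 receptor and JAK-STAT genes tested, Jak2 alone passed, in FBC. That is 12.5% of the list, where 14.1% of all genes were called.

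Jak2, a kinase of the interferon gamma receptor, measured 11.53, 11.66, 11.83 and 12.35 in lean FBC and 10.80, 10.36, 10.55 and 10.60 in obese FBC, without overlap. It fell by 1.27 ± 0.19 in FBC (limma adjusted p = 0.000333) and differed by -0.51 ± 0.19 in FB (adjusted p = 0.128). Among 5 tested negative regulators, the phosphatases Ptpn2 and Ptpn11 fell in FBC by 1.07 ± 0.14 and 0.78 ± 0.16 (adjusted p = 0.000153 and 0.00486), and the phosphatase Ptpn6 (SHP-1) rose by 1.0 ± 0.24 (adjusted p = 0.0111). With the mean of its probe sets Ptpn11 gave -0.24 and was not called (adjusted p = 0.33). The share of the 5 called in FBC was 60%, against 14.1% of all genes, and none passed in FB, where 5.89% of all genes did. Ptpn2 was also lower in obese FBC than in obese FB, by -0.61 ± 0.14 (adjusted p = 0.0157), a call lost without obese FBC 2 (0.0600). The mean of its probe sets (0.0952), cyclic loess normalization (0.053) and a fit of only the groups compared (0.054) lost that call too.

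Of 15 tested sensors, adaptors and factors that lead to interferon production, none passed in FB and 1 (6.67%) in FBC. The shares of all genes called were 5.89% in FB and 14.1% in FBC. The kinase Ikbke rose by 0.77 ± 0.23 in FBC (limma adjusted p = 0.0317), a call lost without lean FBC 2 or 4 or obese FBC 3 or 4 (adjusted p 0.0721 to 0.0946). With the actin ratio as a covariate the Ikbke call was lost too (0.0688). Tlr3, a receptor for double-stranded RNA, was higher in obese FBC than in obese FB by 1.13 ± 0.23 (adjusted p = 0.006).

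A further list of 54 interferon-stimulated genes outside the set, 43 of them tested, gave 3 lower in FB and 7 lower and 1 higher in FBC. The share called was 6.98% in FB, near the 5.89% of all genes, and 18.6% in FBC (16.3% lower), where 14.1% of all genes were called and 5.95% lower. The chemokine Cxcl10, which draws T cells, measured 12.58, 12.39, 12.55 and 12.03 in lean FB and 10.68, 11.70, 11.47 and 11.63 in obese FB. The FBC arrays gave 12.44, 12.69, 12.87 and 12.65 in lean and 10.51, 11.30, 11.40 and 11.37 in obese mice. The groups lay apart in both gates. Cxcl10 fell by 1.02 ± 0.24 in FB (limma adjusted p = 0.0203) and by 1.52 ± 0.24 in FBC (adjusted p = 0.00065), and the FB call was lost without lean FB 1, 2 or 3 or obese FB 1 (0.0604 to 0.0724). Median centring lost the FB call as well (0.062).

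Cxcl11, a ligand of the same receptor, differed by -2.09 ± 0.41 in FB and -1.79 ± 0.41 in FBC, and Gbp6, a further guanylate-binding protein, by -1.23 ± 0.31 and -1.27 ± 0.31 (limma adjusted p 0.006 to 0.0277). The Gbp6 call was lost in FB without lean FB 1, 2 or 3 or obese FB 1, 2 or 3, and in FBC without obese FBC 2 (adjusted p 0.0506 to 0.0911). With the mean of its probe sets Gbp6 gave -0.86 in FB and was not called (adjusted p = 0.0912). In FBC the helicase gene Helz2 fell by 1.76 ± 0.40, Ms4a4c by 1.53 ± 0.35, Gbp8 by 1.52 ± 0.35 and Irgm2 by 0.98 ± 0.30, and Parp12 rose by 0.63 ± 0.20. The call for Irgm2 was lost without lean FBC 1, 2 or 3 or any 1 of the 4 obese FBC arrays (adjusted p 0.0528 to 0.106), and that for Parp12 without lean FB 1, 2 or 3 or any 1 of the 8 FBC arrays (0.0566 to 0.119). Both were also lost with median centring, no filter or a fit of only the groups compared (0.0508 to 0.0921). Of all 31 alternatives, 11 lost the Irgm2 call and 19 the Parp12 call. Without the 3 arrays of high actin ratio the Parp12 difference was 0.49 and not called (adjusted p = 0.0614). The median over the 43 genes was -0.27 in FB and -0.16 in FBC, against 0.03 and 0.08 over all genes.

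Between the gates, 6 genes of that list were lower in obese FBC than in obese FB, with Slfn4 at -2.69 ± 0.35 (limma adjusted p = 0.000225), Ms4a4c at -2.38 ± 0.35 (adjusted p = 0.000577) and Helz2 at -1.99 ± 0.40 (adjusted p = 0.00542). Slfn1, the nucleic acid sensor Zbp1 and the membrane protein Ifitm3 were the others, at -1.41 ± 0.35, -1.25 ± 0.33 and -0.97 ± 0.23. These calls were lost without obese FB 4 or obese FBC 2 or 3 for Slfn1, obese FB or FBC 2, 3 or 4 for Zbp1, and obese FB 2 or obese FBC 2 for Ifitm3 (adjusted p 0.0504 to 0.0881). Array weights also lost the call for Slfn1 (0.0571), and the actin ratio as a covariate that for Zbp1 (0.0865). In lean mice Slfn4 alone was lower in FBC, by -1.77 ± 0.35 (adjusted p = 0.048), a call lost without any 1 array other than obese FB 1 or obese FBC 2 (0.0517 to 0.142) and, at -1.46, without the 3 arrays of high actin ratio (0.0533). Of all 31 alternatives, 21 lost this Slfn4 call, a fit of only the groups compared (0.209) among them. Markers of inflammatory monocytes moved the same way: Plac8, Chil3 and Ccr2, 3 of 4 tested, were lower in obese FBC than in obese FB by -3.42 ± 0.54, -2.88 ± 0.45 and -1.25 ± 0.17. The mean level of the monocyte markers was 12.79 to 13.14 in obese FB and 10.86 to 11.14 in obese FBC. Of the neutrophil markers, 3 of 5 were lower in obese FBC as well, with mean levels of 6.63 to 7.85 in obese FB and 5.56 to 7.08 in obese FBC. In obese FBC 3 of 7 dendritic cell markers, Ccl22, Ccr7 and Fscn1, were higher and 1 of 2 B cell markers, Ms4a1, was lower, and in lean FBC 1 neutrophil marker, S100a8, was lower. The part of these lists in the differences between the obese gates, Isg20 and Parp14 included, was not tested.

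**Figure D5:**
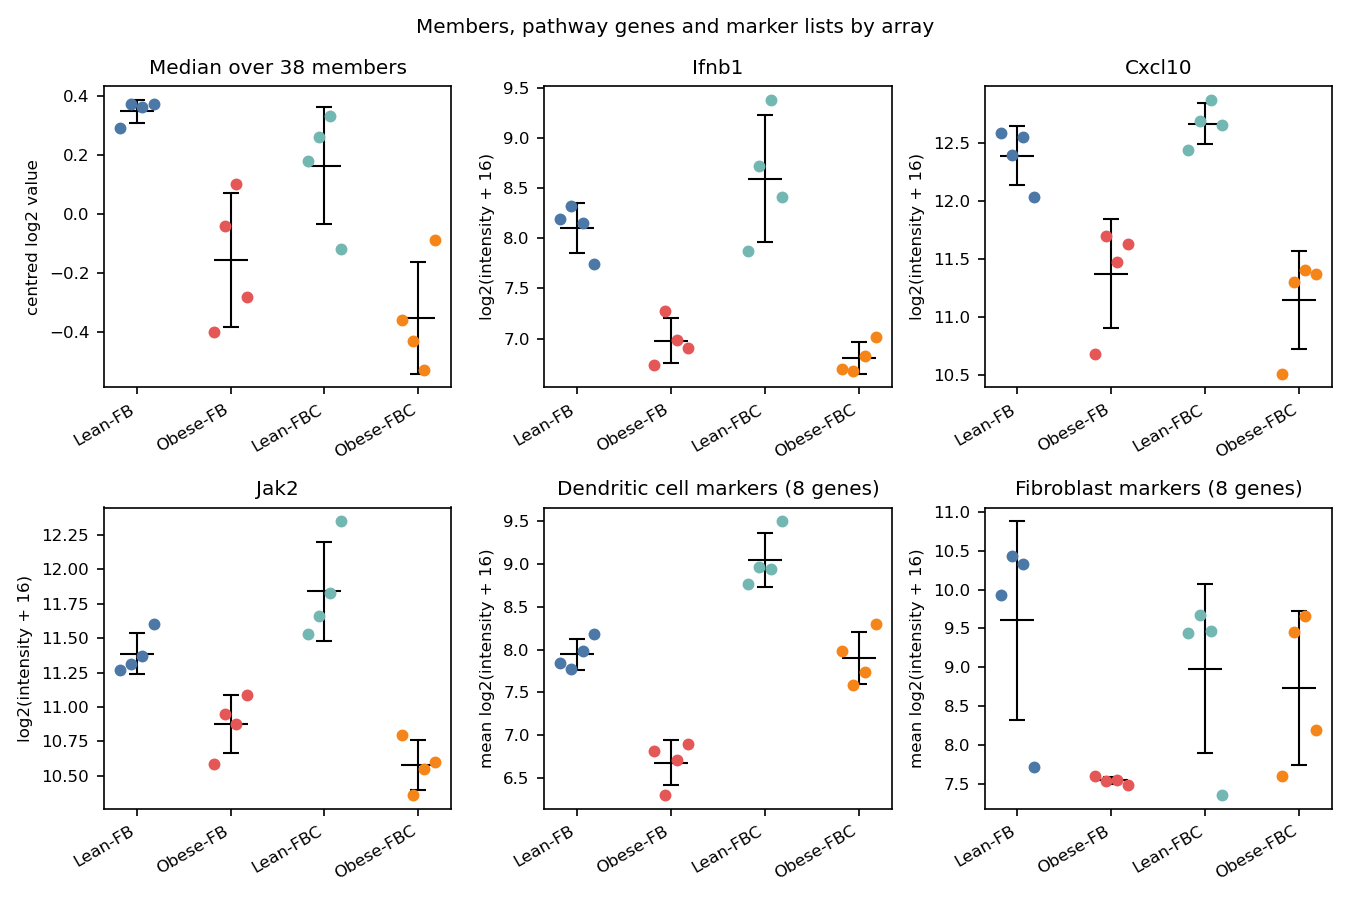
Values by array and group for the centred median of the 38 genes, for Ifnb1, Cxcl10 and Jak2 (log2(intensity + 16)), and for the mean level of 8 dendritic cell and 8 fibroblast markers (points are arrays, lines means, bars SD, n = 4). Ifnb1 and Cxcl10 are lower on all obese arrays, and the mean of the dendritic cell markers is lower in obese mice within each gate. The fibroblast markers are low on lean FB 4 and lean FBC 4, where the median of the 38 genes is 0.37 and -0.12.

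Markers of other cell types moved with genotype. Of 7 tested markers of conventional and migratory dendritic cells, 5 were lower in obese FB and the same number in obese FBC (Ccl17, Ccl22, Fscn1, Zbtb46 and Cd209a in each). The list did not fall as a whole, since differences were below 0 for 6 of the 7 in either gate. Its highest difference was 0.979 in FB and 1.004 in FBC, and no marker of the list was called higher. The mean level of 8 such markers was 7.78 to 8.18 in lean FB, 6.30 to 6.89 in obese FB, 8.76 to 9.50 in lean FBC and 7.59 to 8.29 in obese FBC, and Xcr1 lay below the array median. In lean mice 2 of the 7, Ccr7 and Fscn1, were higher in FBC than in FB. The T cell marker Cd2 was lower in both gates, and 1 of 4 tested T and NK markers passed, with Cd3d, Cd3e, Cd3g and Ncr1 below the array median. Differences were below 0 for all 4 tested in FB and for 2 in FBC, with medians of -0.29 and -0.10. The mean level of the T and NK markers was 5.73 to 6.16 in lean FB, 5.13 to 5.68 in obese FB, 5.80 to 6.29 in lean FBC and 5.20 to 5.59 in obese FBC. In obese FB, 2 of 4 adipocyte, 1 of 5 mesothelial and 1 of 3 endothelial markers were lower and 1 of 4 monocyte markers was higher. In obese FBC, 1 of 4 adipocyte, 1 of 2 eosinophil and 1 of 4 monocyte markers were lower and 1 adipocyte marker was higher, and B cell and neutrophil markers passed in neither gate. The part of these markers in the obesity difference was not tested.

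Of the 4 tested markers of plasmacytoid dendritic cells, a known source of type I interferon, none passed in FB or FBC, and Ccr9, Ly6d and Pacsin1 lay below the array median. Their mean level was 6.15 to 6.90 in lean FB, 6.39 to 6.61 in obese FB, 6.23 to 6.94 in lean FBC and 6.48 to 6.70 in obese FBC. Fibroblast markers were lower in obese FB for 4 of 8 genes and in obese FBC for none, with mean levels of 7.71 to 10.43 in lean FB, 7.48 to 7.60 in obese FB, 7.35 to 9.67 in lean FBC and 7.60 to 9.66 in obese FBC. On lean FB 4 they stood at 7.71 and the centred median of the 38 genes was 0.37, where the other lean FB arrays had 9.93 to 10.43 and 0.29 to 0.37. On lean FBC 4 they stood at 7.35 and that median was -0.12, where the other lean FBC arrays had 9.44 to 9.67 and 0.18 to 0.33. The part of the fibroblast markers in the obesity difference was not tested. Macrophage markers Adgre1 and Fcgr1 were higher in obese FBC by 1.08 ± 0.24 and 0.96 ± 0.28, 2 of 7 in the list, with a mean level of 10.86 to 11.57 in lean and 11.73 to 11.91 in obese FBC.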

How the data were processed

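The deposited values are intensities on a linear scale. Per the submitters' processing notes they came from Affymetrix Expression Console, and the summary method, its version and the authors' probe annotation were not given in the sources used here. Each array's mean after trimming 2% at both ends was 250. From these values, log2(intensity + 16) was quantile-normalized. Control probe sets and 932 probe sets of several symbols were left out, the probe set of highest mean over all arrays stood for a gene, and a gene was tested if it exceeded the array median on 4 or more of 16 arrays. Limma 3.58.1 in R 4.3.3 (lmFit and eBayes, 4 group means, all 16 arrays) gave 5 comparisons, adjusted by Benjamini-Hochberg over 11908 genes. The number of arrays limits the precision. No batch is given in the labels.

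The genes and lists were chosen with earlier results of these data known. Values of every array are given for the 16 genes of the set with the largest called change, and other pathway genes are named where they passed, besides the interferons and receptors, while cell type markers are given mainly as counts. Residual correlations between FB and FBC arrays of the same number were 0.135, 0.231, 0.299 and 0.595 in lean mice. In obese mice they were 0.310, 0.033, -0.030 and -0.137. Lean FB 2, 3 and 4 and obese FB 1 correlated best with the FBC array of their own number, and the other FB arrays did not. Both lean arrays of number 4 had a high actin ratio. Nothing in the labels ties the numbers to a mouse. Alternatives covered normalization, pseudocount, filter, probe set choice, array weights, blocks, the actin ratio and leaving out arrays. Motifs were counted in RefSeq promoters with Python.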

Additional observations from a re-analysis of the deposited data

Results flagged for a closer look

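For 13 of 160 groups of 4 arrays, 1 array lay far from the other 3, where chance gives about 1 in 20, or 8. Of these, 7 were on lean FB array 4 and 3 on lean FBC array 4, both among the 3 arrays of high actin ratio. On lean FB 4, Oasl1 was low at 7.74 (the others 9.62 to 9.88), Ifih1 at 11.73, Gbp2 at 10.44 and Trim30a at 11.22, while Mx2 was high at 6.26, Tap1 at 9.73 and Ifi35 at 12.78 (the others 11.54 to 11.66). On lean FBC 4, Oasl2 was low at 7.61 (the others 8.99 to 9.05) and Igtp at 8.24, and Oas3 was high at 5.48. Dhx58 was low at 4.27 on obese FB 4 (the others 6.90 to 7.04), and Gbp2 at 9.09 on obese FB 1. The centred median of the 38 genes was 0.29 on lean FB 1, with the other 3 of its group at 0.36 to 0.37.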

How the results depend on the processing

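No result changed direction under any alternative. The count of genes called in FB was 7 with median centring, 6 without a filter, 7 with all probe sets tested singly and 17 with array weights, a setting that calls 33.5% of all genes. With array weights the counts were 23 in FBC (34.6% of all genes called), 5 for FBC against FB in lean mice (11.1%), 12 for the same in obese mice (18.5%) and 4 for the interaction (12.9%). Array weights called 2 genes higher in FBC, Irf1 and Oas3, and Irf1 was called higher there under 5 other alternatives. Without the 3 arrays of high actin ratio they were 19 in FBC and 6 for FBC against FB in obese mice, where averaging the probe sets of each gene gave 1, as did a fit of only the groups compared. Leaving out 1 array gave 5 to 11 in FB, 9 to 14 in FBC, 0 to 0 between the lean gates, 1 to 4 between the obese gates and 0 to 0 for the interaction. With the array number as a replicate block the counts were 11, 13, 0, 4 and 0, and with number within genotype as the block 11, 11, 0, 4 and 0. The block moved no count by over 1.5 times. The causes of these shifts were not tested. Calls that held throughout were those of Ifit1, Oas2, Gbp3 and Gbp7 in FB, those of Ifit1, Ifih1, Mx1, Gbp2, Gbp3, Gbp7, Usp18, Parp14 and Rsad2 in FBC, and that of Isg20 between the obese gates. Dim genes such as Stat2, Oas3 and Dhx58 lie near the array median, where signal over background limits what can be seen.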
